A study of Mus musculus with 59 samples.

Results

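The comparison described here set the diaphragm of mice with a cachectic melanoma against the diaphragm of mice with a non-cachectic melanoma, within libraries that shared one expression state. The state was defined by Pcna-ps2, a processed pseudogene of the replication clamp gene Pcna, at GRCm38 chr19:9283380-9284160. All diaphragm libraries with Pcna-ps2 above 3 TPM (transcript abundance per gene, with a fixed sum for every library) were taken. These were 26 of the 39 diaphragm libraries and of the 59 libraries in all, 17 cachectic and 9 non-cachectic. The mice were female NCI Ath/nude animals, an athymic strain without mature T cells of thymic origin, 4 months old, that carried a patient-derived melanoma xenograft which causes cachexia (CACMEL) or one which does not (NONCACMEL). Each melanoma is a single tumour stock, so differences between the tumours other than cachexia cannot be told apart from it. Mice received intraperitoneal injections of rFibcd1, the recombinant C-terminal part of mouse Fibcd1, or of albumin in saline (mock). The study describes Fibcd1 as a factor secreted by muscle. The high-state libraries were 9 cachectic mock, 8 cachectic rFibcd1, 3 non-cachectic mock and 6 non-cachectic rFibcd1 samples.

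Cachexia is a loss of muscle mass during disease that feeding does not fully reverse. In wasting muscle, circulating cytokines of the interleukin-6 family signal through their receptors to the transcription factor STAT3, and glucocorticoids act through their own receptor. Both routes are known to raise acute-phase and metallothionein genes, and atrophy is commonly accompanied by higher ubiquitin ligase and proteasome gene expression. The diaphragm is the main muscle of breathing and contracts throughout life.

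Pcna-ps2 split the diaphragm libraries without intermediate values. The lowest value above the threshold was 8.07 TPM, in a non-cachectic mock library, and the highest value below it was 0.428 TPM, in a cachectic rFibcd1 library. The low state held 13 libraries, of which 1 was cachectic mock, 2 cachectic rFibcd1, 6 non-cachectic mock and 4 non-cachectic rFibcd1. The labels do not say what separates the states. Because the 26 libraries were selected on Pcna-ps2, its level in them is a description, with a range of 9.43 to 22.8 TPM in cachectic and 8.07 to 12.01 TPM in non-cachectic libraries. Its parent gene Pcna ranged from 17.1 to 34.4 TPM and from 13.5 to 21.8 TPM in the same groups.

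**Figure D1:**
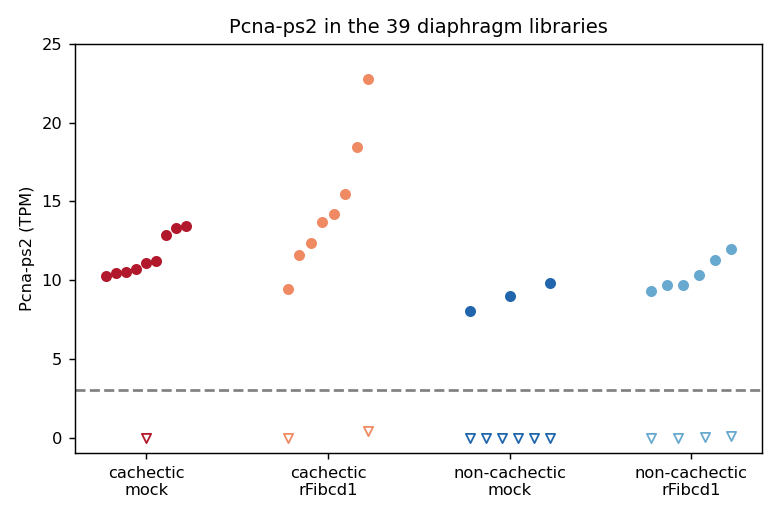
Pcna-ps2 in TPM (vertical axis) for each of the 39 diaphragm libraries by group, with filled circles for the high state, open triangles for the low state and the threshold of 3 TPM as a dashed line. The 26 filled circles lie between 8.07 and 22.8 TPM and the 13 triangles at or below 0.428 TPM.

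The libraries were of muscle. Over the 26 libraries Acta1, skeletal actin, ranged from 16846 to 40706 TPM and Ckm, muscle creatine kinase, from 4358 to 8600 TPM. The melanocyte genes Pmel, Mlana, Tyr, Tyrp1 and Dct stayed below 1 TPM in every one of them. Genes above 0 numbered 18133 to 19456 per library, and the difference between the melanoma groups in that number was within their spread (133.9 genes, p = 0.285, exact two-sided permutation within treatment). TPM keeps no sequencing depth, so the depth behind each value is unknown. The labels do not tie a library to an animal beyond listing separate samples, so p-values measure the spread between these samples.

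The state-matched comparison gave a broad difference that was led by acute-phase and metal-binding genes on the higher side and by the cardiac actin gene Actc1 (-2.03), Nrep (-1.38) and the receptor gene Lgr6 (-1.38) on the lower side. With limma on log2(TPM + 1) and treatment as a term, 13265 genes were tested, and 2386 were called at an adjusted p under 0.05 (Benjamini-Hochberg). Of these 2067 (15.6% of genes tested) were higher and 319 (2.4%) lower in cachectic libraries. The direction of this split depended on scaling. When libraries were scaled by the median ratio of their genes, 495 genes (3.73%) were called higher and 719 (5.42%) lower, so that the share of calls on the higher side was 40.8% in place of 86.6%. The median difference over all genes was 0.13 as deposited and 0.01 after that scaling. Every gene called higher after scaling, 495 of 495, was also called higher as deposited, and the 319 genes called lower as deposited were called lower again. That scaling divides each library by a common factor and so shifts the differences of most genes by similar amounts. The nesting of the calls therefore follows largely from the scaling. The number of calls also rested on few non-cachectic libraries. It was 795 without non-cachectic mock library 9, 984 without library 6 and 1221 without library 8 of that group, and 3755 without non-cachectic rFibcd1 library 6 (libraries numbered by column order within a group). It was 1467 without non-cachectic rFibcd1 library 4 and 1533 without cachectic rFibcd1 library 4.

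The composition of the libraries moved with the melanoma. Transcripts of mitochondrially encoded genes made up 37.8% ± 4.00 (SD, n = 17) of all TPM in cachectic and 42.9% ± 2.24 (SD, n = 9) in non-cachectic libraries. The difference of -5.28 percentage points, weighted over treatments, had an adjusted p of 0.0034125 over 3 library measures (exact two-sided permutation within treatment). The 10 most abundant genes held 37.4% ± 3.10 (SD, n = 17) against 41.7% ± 2.07 (SD, n = 9), or -4.50 points, with the same adjusted p of 0.0034125 (exact permutation). TPM sums to a fixed total, so a lower mitochondrial share raises the TPM of all other genes, and counts on both scales are given for the main gene groups. The ranges of the mitochondrial share overlapped, from 32.7% to 46.4% in cachectic and from 39.3% to 46.8% in non-cachectic libraries.

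**Figure D2:**
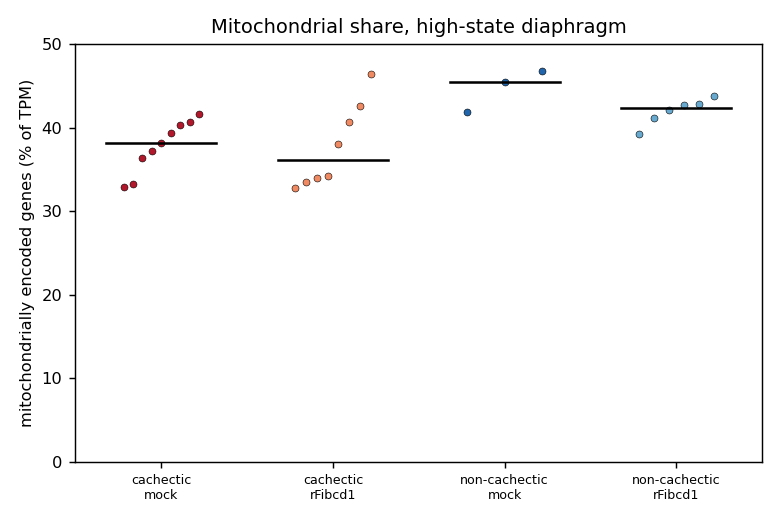
Share of TPM from mitochondrially encoded genes in percent (vertical axis, from 0) for each high-state diaphragm library by group, with the group median as a bar. The cachectic libraries lie between 32.7% and 46.4% and the non-cachectic libraries between 39.3% and 46.8%.

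Acute-phase genes, whose products are secreted in inflammation, were the list with the highest median. Of 24 tested, 13 (54.2%) rose against 15.6% of all genes and 0 fell, and 11 (45.8%) rose against 3.73% under median-ratio scaling. Their median difference was 1.06 on the log2 scale against 0.13 over all genes. Serpina3n, an inhibitor of serine proteases on chromosome 12, lay between 8.13 and 2184 TPM (median 197) in cachectic libraries and between 7.95 and 20.8 TPM (median 14.1) in non-cachectic libraries. In 16 of 17 cachectic libraries it was above every non-cachectic library, and the log2 difference was 3.42 ± 0.66 (SE; adjusted p = 0.00509, limma). The 1 cachectic library within the non-cachectic range was treated with rFibcd1. Saa1, a serum amyloid protein, ranged from 1.03 to 299 TPM against 0.173 to 6.59 TPM (log2 difference 2.84 ± 0.61, adjusted p = 0.00701, limma). Saa2 differed by 2.31, but Saa1 and Saa2 are near-identical neighbours on chromosome 7, and how reads were split between them is not known. Itih4 (2.18), the haemoglobin-binding protein haptoglobin Hp (2.13), Saa3 (2.05) and Lcn2 (2.00), a lipocalin that binds iron-carrying siderophores, rose as well. The call of Saa3 was lost under median-ratio scaling (adjusted p = 0.0574). Liver is the main source of acute-phase proteins and lies against the diaphragm. Of 8 hepatocyte markers 0 were called (limma; 1 at an unadjusted p under 0.05), and their sum ranged from 57.0 to 2623 TPM in cachectic and from 46.2 to 835 TPM in non-cachectic libraries, with Alb (albumin) from 0.107 to 1516 TPM over the 26. Their part in these differences was not tested.

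Genes of the interleukin-6 receptor family and targets of STAT3 moved in the same direction. Of 22 tested, 11 (50%) rose against 15.6% of all genes and 0 fell (median 0.55), and 9 (40.9%) rose against 3.73% under median-ratio scaling. Cebpd, a transcription factor of the C/EBP family on chromosome 16, was the single gene of 13265 (0.00754%) whose cachectic libraries all lay above all non-cachectic libraries, and 0 genes (0%) lay wholly below. Its level was 9.26 to 96.9 TPM (median 31.7) in cachectic and 6.12 to 8.98 TPM (median 7.26) in non-cachectic libraries, with a log2 difference of 1.69 ± 0.29 (SE; adjusted p = 0.00316, limma). The gap between the groups, from 8.98 to 9.26 TPM, was small beside the spread of the cachectic libraries. Socs3, the feedback inhibitor of this pathway, ranged from 7.77 to 106 TPM against 6.49 to 12.5 TPM and was above the non-cachectic range in 16 of 17 cachectic libraries (log2 difference 1.84 ± 0.31). Stat3 itself (0.75), the receptor chains Osmr (0.97) and Il6st (0.37) and the immediate-early gene Junb (1.26) were called higher. The call of Il6st was lost under median-ratio scaling (adjusted p = 0.083, limma). The ligand genes Il6, Lif and Osm fell below the expression filter.

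**Figure D3:**
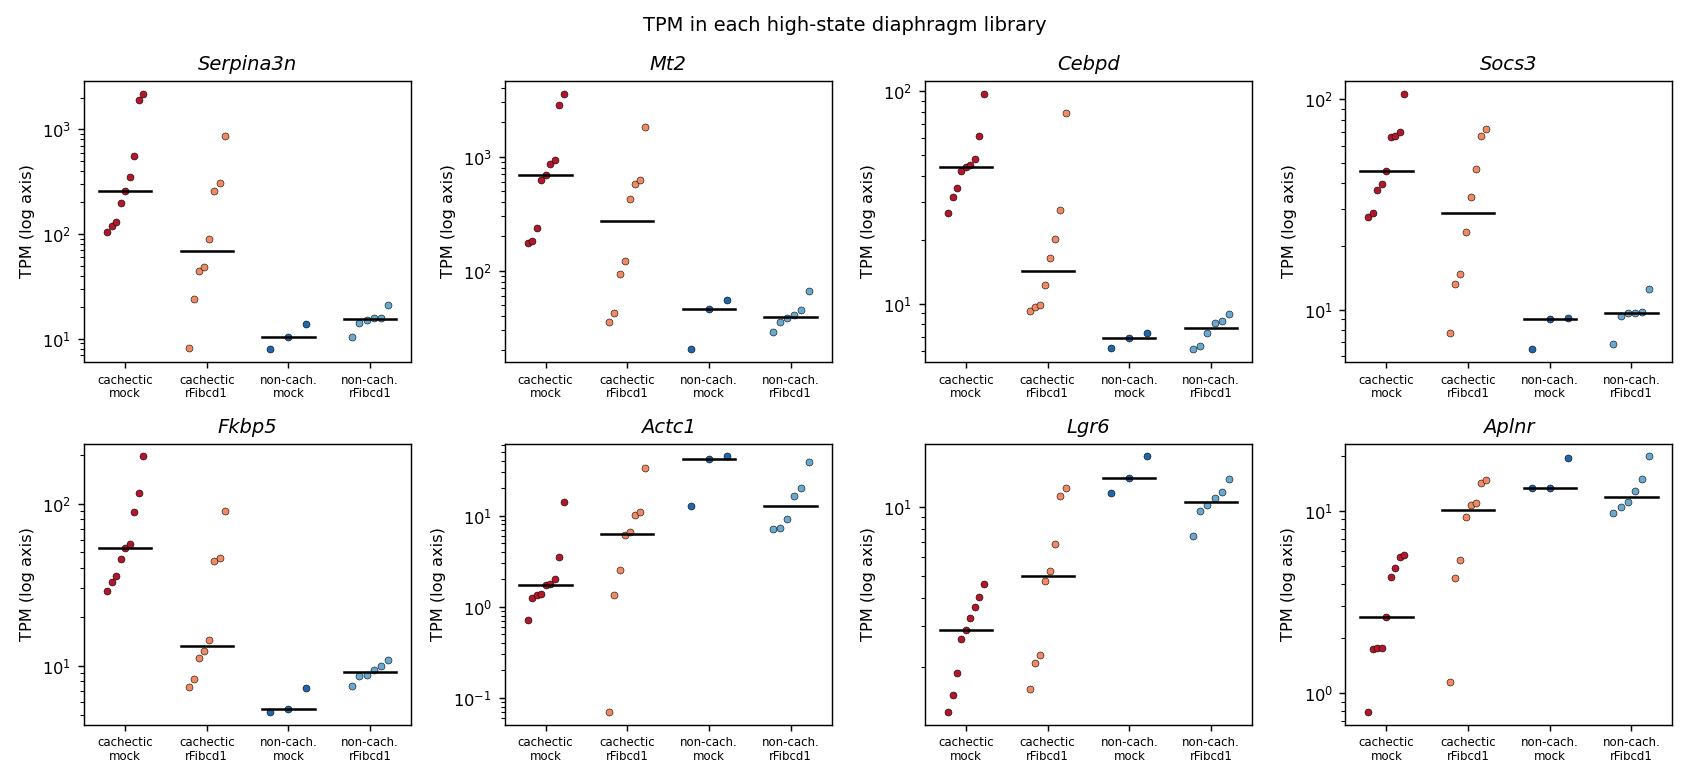
TPM on a log axis for 8 genes, each point a high-state diaphragm library and each bar a group median, by melanoma and treatment, with 17 cachectic and 9 non-cachectic libraries. Cebpd separates the melanomas fully, with a lowest cachectic value of 9.26 TPM and a highest non-cachectic value of 8.98 TPM, and the rFibcd1-treated cachectic libraries spread furthest towards the non-cachectic ones.

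Metallothioneins, small proteins that bind zinc and copper, gave some of the largest differences. Of 15 metallothionein and zinc genes, 5 (33.3%) rose against 15.6% of all genes and 0 fell (median 0.28), and 3 (20%) rose against 3.73% under median-ratio scaling. Mt2 ranged from 35.5 to 3572 TPM (median 581) in cachectic and from 20.5 to 66.1 TPM (median 40.7) in non-cachectic libraries, and 15 of 17 cachectic libraries exceeded the highest non-cachectic library. Its log2 difference was 3.07 ± 0.61 (SE; adjusted p = 0.00608, limma). Mt1, its neighbour on chromosome 8, ranged from 100.1 to 2851 TPM against 78.1 to 113 TPM (2.02 ± 0.45). The zinc exporter Slc30a1 rose by a log2 difference of 0.40, a call lost under median-ratio scaling (adjusted p = 0.0739).

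Promoters of the genes with the largest differences were read from RefSeq on GRCm38.p6, over 250 bases before and 50 after the annotated start, and were found for 26 of 30 genes. They are shown for genes in which a searched motif was found and which represent the leading groups. The metal response element core was searched as TGCACNC or TGCGCNC on both strands, and at least 1 match lies in 25.7% of 32851 promoters. Mt2 (chr8:94172368-94172667, plus strand) has 4 matches, and 0.517% of promoters have 4 or more. Mt1 (chr8:94178839-94179138, plus strand) has 3, and 1.97% of promoters have 3 or more. Of the 14 higher genes and the 12 lower genes with a promoter, 2 and 6 hold such a match. Fhl2 and Ybx2, both lower, have 2 promoters each, and a gene counts if either promoter matches. In the sequences of Mt2 and Mt1, capitals mark the matches to this core alone.
Mt2: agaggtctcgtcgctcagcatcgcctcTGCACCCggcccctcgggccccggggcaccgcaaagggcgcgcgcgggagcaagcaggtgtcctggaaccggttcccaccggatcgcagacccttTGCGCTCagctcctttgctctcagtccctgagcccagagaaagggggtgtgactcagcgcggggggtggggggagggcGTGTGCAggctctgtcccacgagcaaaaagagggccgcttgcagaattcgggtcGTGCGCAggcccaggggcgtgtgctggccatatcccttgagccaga
Mt1: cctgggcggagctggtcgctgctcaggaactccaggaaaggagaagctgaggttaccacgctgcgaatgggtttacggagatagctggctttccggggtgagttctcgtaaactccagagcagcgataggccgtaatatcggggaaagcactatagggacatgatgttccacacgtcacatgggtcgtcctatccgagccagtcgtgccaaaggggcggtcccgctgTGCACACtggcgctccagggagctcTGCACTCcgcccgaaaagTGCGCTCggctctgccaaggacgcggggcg
The core of the glucocorticoid response element, searched as ACANNNTGT, lies in 6.85% of all promoters, in 5 of the 14 higher genes and in 0 of the 12 lower genes. Serpina3n (chr12:104406458-104406757, plus strand) holds 1 match, and so does Mt1, where it stands in lower case above. The STAT site TTCNNNGAA lies in 8.3% of all promoters, in 3 of the 14 and 0 of the 12. Scgb3a1 (chr11:49663345-49663644, plus strand) and Itih4 (chr14:30886226-30886525, plus strand) hold 1 match each. Capitals mark the glucocorticoid core in Serpina3n and the STAT site in Scgb3a1 and Itih4.
Serpina3n: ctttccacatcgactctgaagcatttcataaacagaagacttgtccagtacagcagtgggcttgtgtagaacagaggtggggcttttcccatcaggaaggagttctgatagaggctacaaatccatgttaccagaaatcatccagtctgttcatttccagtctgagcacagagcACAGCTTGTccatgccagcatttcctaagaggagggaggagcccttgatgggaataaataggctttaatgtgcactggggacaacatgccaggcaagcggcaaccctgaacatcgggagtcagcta
Scgb3a1: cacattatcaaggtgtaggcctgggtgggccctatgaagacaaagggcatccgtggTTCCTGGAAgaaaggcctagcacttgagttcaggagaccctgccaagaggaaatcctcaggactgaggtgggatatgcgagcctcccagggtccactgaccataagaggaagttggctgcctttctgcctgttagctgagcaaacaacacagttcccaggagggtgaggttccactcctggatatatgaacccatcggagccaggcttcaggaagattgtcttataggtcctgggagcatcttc
Itih4: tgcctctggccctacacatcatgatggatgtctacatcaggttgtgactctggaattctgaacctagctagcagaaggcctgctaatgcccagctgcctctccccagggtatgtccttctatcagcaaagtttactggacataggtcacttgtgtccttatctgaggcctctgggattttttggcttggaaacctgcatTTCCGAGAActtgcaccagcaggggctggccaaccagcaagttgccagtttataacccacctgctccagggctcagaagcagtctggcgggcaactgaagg
Of all promoters, the E-box CACGTG lies in 7.15%, the D-box TTATGTAA in 0.938% and the FoxO site GTAAACA in 3.65%. In the promoters of the 26 genes there were 0 matches to any of them. A match is a run of letters and not a measured binding site.

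Glucocorticoid response genes rose in 12 of 29 tested (41.4% against 15.6% of all genes) and fell in 0 (median 0.54), with 8 (27.6% against 3.73%) higher under median-ratio scaling. Fkbp5, a co-chaperone of the glucocorticoid receptor, ranged from 7.44 to 195 TPM (median 44.1) in cachectic and from 5.20 to 10.8 TPM (median 8.65) in non-cachectic libraries, a log2 difference of 1.88 ± 0.41 (SE; adjusted p = 0.00763, limma). Ddit4, an inhibitor of mTORC1 signalling, differed by 1.45 ± 0.35 and Glul, glutamine synthetase, by 1.13 ± 0.23. Mt2 and Cebpd belong to this list as well as to those above, so the lists are not separate evidence. The receptor gene Nr3c1 differed by -0.12 (adjusted p = 0.406, limma).

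The ubiquitin ligases most used as markers of muscle atrophy did not pass the test. Both genes fall outside the rule for named genes and were chosen after their values were seen. Fbxo32 (atrogin-1) lay between 59.5 and 877 TPM (median 120) in cachectic and between 94.3 and 163 TPM (median 115) in non-cachectic libraries, with a log2 difference of 0.11 ± 0.36 (SE; adjusted p = 0.834, limma). Trim63 (MuRF1) lay between 77.4 and 1481 TPM (median 122) against 96.5 to 179 TPM (median 118), a difference of 0.45 ± 0.42 (adjusted p = 0.438, limma). The medians of both genes were close, and the highest values were in cachectic libraries. Of 36 muscle ubiquitin ligases and adaptors, 4 (11.1%) were called higher, a share below the 15.6% of all genes, and 4 (11.1%) lower against 2.4%. Under median-ratio scaling 1 (2.78%) was higher against 3.73% of all genes, and 5 (13.9%) lower against 5.42%. Trim72 (0.56), a membrane-repair protein, was among the higher, and Klhl30 (-0.65), Asb2 (-0.61) and Fbxw7 (-0.40) were among the lower. The call of Fbxw7 was lost in 7 of the 26 fits that left out 1 library (adjusted p up to 0.0834, limma), without a filter and in the Dunn rank test.

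Among genes for making and degrading protein, cytosolic ribosomal protein genes rose most uniformly. Of 77 tested, 72 (93.5%) rose against 15.6% of all genes and 0 fell (median 0.44, range 0.21 to 0.68), and 56 (72.7%) rose against 3.73% under median-ratio scaling (median 0.30). Rpl3 ranged from 61.9 to 184 TPM in cachectic and from 52.0 to 155 TPM in non-cachectic libraries, so the groups overlapped although the log2 difference was 0.68 ± 0.18 (adjusted p = 0.0166, limma). Rps28, with 148 to 285 TPM against 120 to 175 TPM, was above the non-cachectic range in 13 of 17 libraries. Proteasome subunit genes rose in 25 of 33 tested (75.8% against 15.6% of all genes; median 0.27), led by Psmd8 (0.49), Psmd4 (0.48) and Psma7 (0.43). Under median-ratio scaling 1 of 33 (3.03%) was called, near the 3.73% of all genes, and these 3 lost their calls. Of 37 autophagy and lysosome genes 12 (32.4%) were called higher against 15.6% of all genes (median 0.19). Under that scaling 3 (8.11%) were higher against 3.73% of all genes and 1 (2.7%) lower against 5.42%.

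**Figure D4:**
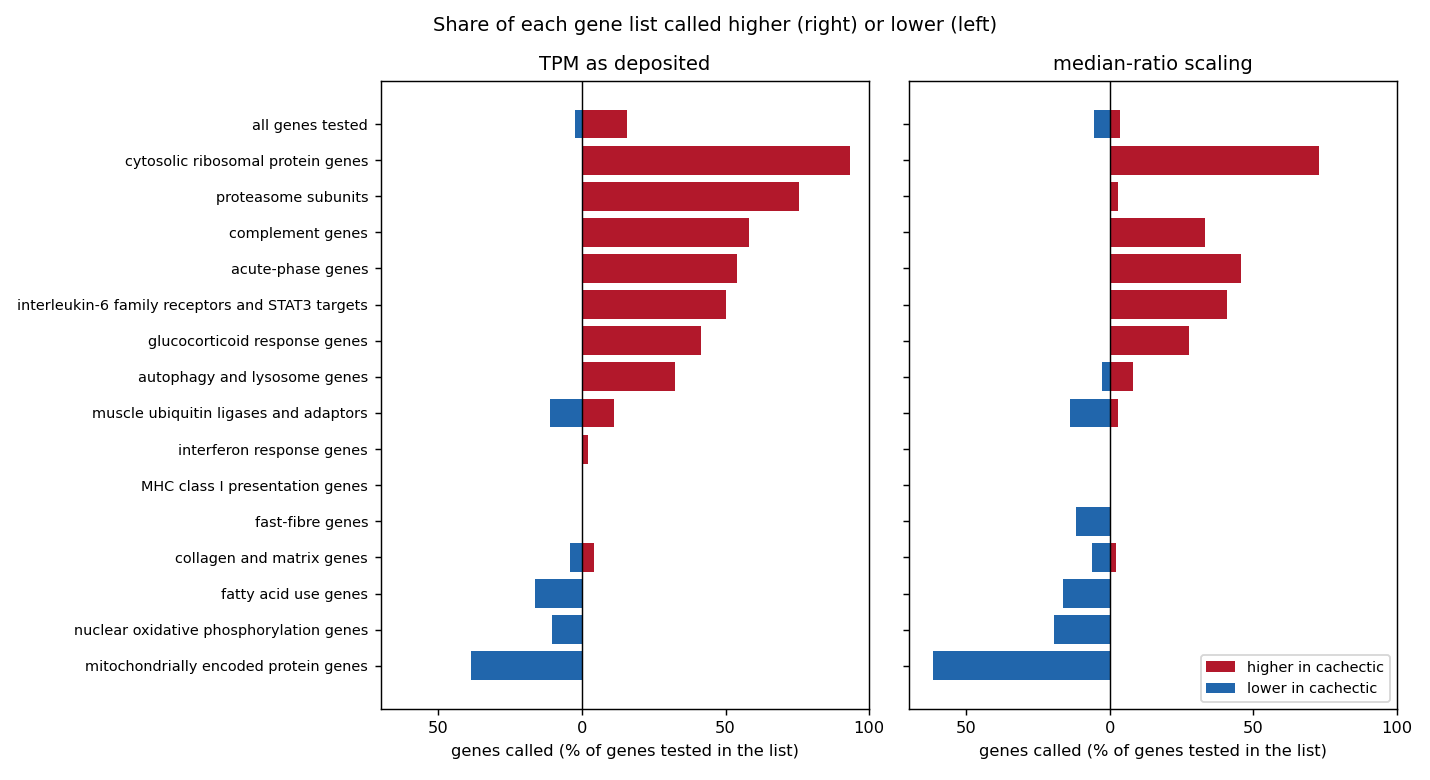
Percent of the tested genes of each list that were called higher (bars to the right, red) or lower (bars to the left, blue) in cachectic high-state diaphragm, as deposited (left panel) and under median-ratio scaling (right panel), with all genes tested in the top row. Ribosomal protein genes were called in 72 of 77 and 56 of 77, while proteasome subunits went from 25 of 33 to 1 of 33.

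Genes of oxidative metabolism were lower where they were called. Of 77 nuclear oxidative phosphorylation genes 0 rose and 8 (10.4%) fell against 2.4% of all genes (median -0.07), and 15 (19.5%) fell against 5.42% under median-ratio scaling. Cox7a1, the muscle form of a cytochrome c oxidase subunit, ranged from 566 to 1461 TPM in cachectic and from 1069 to 1446 TPM in non-cachectic libraries (log2 difference -0.49 ± 0.13, adjusted p = 0.0172, limma), and 11 of 17 cachectic libraries lay below all non-cachectic ones. Of 13 mitochondrially encoded protein genes 5 (38.5%) fell (median -0.20), and 8 (61.5%) fell under median-ratio scaling, against the same shares of all genes. mt-Nd2, a complex I subunit, was below every non-cachectic library in 15 of 17 cachectic libraries (-0.27 ± 0.07). Its call was lost without a filter and under quantile normalization. Of 37 fatty acid genes 6 (16.2%) were called lower and 0 higher on both scales, where 2.4% and 5.42% of all genes were called lower, with Hadhb (-0.36), Acsl1 (-0.35) and Hadha (-0.35) as examples. These 3 calls were near the threshold. Those of Hadhb and Hadha were lost in 13 and that of Acsl1 in 7 of the 26 fits that left out 1 library, with adjusted p up to 0.0982, 0.0935 and 0.0759 (limma), and all 3 were lost without a filter. Mb, myoglobin, ranged from 4692 to 14563 TPM against 11074 to 14698 TPM and fell by 0.67 on the log2 scale.

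The lower side of the comparison was led by Actc1, the cardiac form of alpha-actin, on chromosome 2. It ranged from 0.0703 to 33.6 TPM (median 2.03) in cachectic and from 7.09 to 44.4 TPM (median 16.3) in non-cachectic libraries, and 13 of 17 cachectic libraries lay below every non-cachectic library. The log2 difference was -2.03 ± 0.49 (SE; adjusted p = 0.0109, limma). Lgr6, a receptor for R-spondins, had 1.27 to 12.03 TPM (median 3.25) against 7.47 to 16.5 TPM (median 11.5) and was below the non-cachectic range in 15 of 17 libraries (-1.38 ± 0.25, adjusted p = 0.0042, limma). The peptide hormone gene Apln (apelin) and its receptor gene Aplnr fell together. Apln had 0.433 to 13.3 TPM (median 2.67) against 5.06 to 16.9 TPM (median 9.03), a difference of -1.15 ± 0.30 (adjusted p = 0.0159, limma). Aplnr had 0.790 to 14.8 TPM (median 4.89) against 9.80 to 19.9 TPM (median 13.4), a difference of -1.25 ± 0.31 (adjusted p = 0.0119, limma). The 9 cachectic mock libraries, at 0.790 to 5.73 TPM of Aplnr, were all below the non-cachectic libraries, while the 8 cachectic rFibcd1 libraries, at 1.15 to 14.8 TPM, overlapped them. Grb14 (-0.98), an adaptor that inhibits the insulin receptor, and Mfap4 (-1.18), a protein of matrix microfibrils, were also lower. These calls were kept under median-ratio scaling.

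Structural genes of the fibre gave few calls. Of 17 fast-fibre genes 0 were called (limma; 4 at an unadjusted p under 0.05; median 0.10), with 2 (11.8% against 5.42% of all genes) lower under median-ratio scaling. Of 15 slow-fibre genes 1 (6.67%) was higher, Ankrd2, against 15.6% of all genes, and 2 (13.3%) lower, Actc1 and Mb, against 2.4%. Ankrd2, an ankyrin-repeat protein that responds to stretch, ranged from 62.7 to 2015 TPM in cachectic and from 33.5 to 155 TPM in non-cachectic libraries (2.07 ± 0.49, adjusted p = 0.0101, limma). Des, which encodes the intermediate filament desmin, ranged from 1216 to 4163 TPM against 1172 to 1725 TPM (0.77 ± 0.19), and Cacng1, a calcium channel subunit of muscle, rose by a log2 difference of 1.18. The slow myosin gene Myh7 differed by 0.17 (adjusted p = 0.357, limma) and the fast myosin gene Myh4 by 0.27 (adjusted p = 0.661, limma). Of 22 neuromuscular junction and denervation genes 4 (18.2%) were called higher, close to the 15.6% of all genes, among them Runx1 (0.57). Called lower was 1 (4.55% against 2.4%), Colq (-0.50), the collagen tail of acetylcholinesterase. Under median-ratio scaling 2 (9.09%) of this list were higher against 3.73% of all genes and 2 (9.09%) lower against 5.42%, with the calls of Runx1 and Colq kept. Of 48 collagen and matrix genes 2 (4.17%) were called higher, below the 15.6% of all genes, and 2 (4.17%) lower against 2.4% (median -0.04). Under median-ratio scaling 1 (2.08%) was higher against 3.73% of all genes and 3 (6.25%) lower, near the 5.42% of all genes. Lox (1.00), which cross-links collagen, and Col15a1 (-0.87) were among those called.

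Complement genes rose in 14 of 24 tested (58.3% against 15.6% of all genes; median 0.61) and in 8 (33.3% against 3.73%) under median-ratio scaling. C1qc, C1qb and C4b, components of the classical pathway, differed by 1.04 ± 0.26, 1.01 ± 0.26 and 1.02 ± 0.27. The calls of C1qb and C4b, and those of C1qa, Cd14, Fcgr1, Oas2 and Bcl3 given below, were lost in the Dunn rank test. Of 21 chemokines 5 (23.8%) were called higher against 15.6% of all genes, and 4 (19%) against 3.73% under median-ratio scaling, with Ccl8 at 12.8 to 342 TPM against 5.63 to 67.7 TPM (1.94 ± 0.41, adjusted p = 0.00701, limma). Macrophage markers moved with these groups. Of 9 tested 5 (55.6% against 15.6% of all genes) were called higher, namely Mrc1, Fcgr1, C1qa, Cd163 and Cd14, and all but Fcgr1 (44.4% against 3.73%) also under median-ratio scaling. The summed level of all the macrophage markers ranged from 467 to 3378 TPM in cachectic and from 210 to 1650 TPM in non-cachectic libraries. Their part in these results was not tested, and more macrophages and more RNA per macrophage cannot be told apart in whole muscle. The summed neutrophil markers ranged from 9.90 to 451 TPM against 5.92 to 214 TPM, with 0 of 3 tested called (limma; 0 at an unadjusted p under 0.05) and the other 7, Ly6g, Mpo and Elane among them, below the expression filter. Of 44 interferon response genes 1 (2.27%) was called higher, below the 15.6% of all genes. It was Oas2 (0.61), and 0 were called under median-ratio scaling, where Oas2 had an adjusted p of 0.0797 (limma). That call was also lost in 10 of the 26 fits that left out 1 library. Of 20 MHC class I presentation genes 0 were called (limma; 1 at an unadjusted p under 0.05). Of 22 genes of the TWEAK and NF-kappaB pathway 6 (27.3%) were called higher against 15.6% of all genes, and 5 (22.7%) against 3.73% under median-ratio scaling, including the receptor Tnfrsf1a (0.72) and the regulator Bcl3 (0.78).

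The counts of the remaining lists are read against all genes, of which 15.6% were called higher and 2.4% lower as deposited. Under median-ratio scaling 3.73% of all genes were called higher and 5.42% lower. Of 15 core clock genes 2 (13.3%) were called higher, Per2 (1.13) and Cry2 (0.65), and the call of Cry2 was lost under median-ratio scaling (adjusted p = 0.0895, limma). Arntl, which drives the clock, ranged from 1.74 to 32.6 TPM in cachectic and from 3.03 to 33.5 TPM in non-cachectic libraries (-0.83, adjusted p = 0.118, limma). The hour of tissue collection is not in the labels. Of 15 polyamine genes 5 (33.3%) were called higher, among them Odc1 (0.50) and Sat1 (0.69), the first biosynthetic and a main catabolic enzyme, but under median-ratio scaling 1 was higher and 2 lower, with both of these calls lost. Of 27 amino acid genes 6 (22.2%) were called higher and 1 lower, and 2 higher and 2 lower under median-ratio scaling. Among them Slc3a2, the heavy chain of amino acid exchangers, was at 22.7 to 72.0 TPM against 18.4 to 33.1 TPM (0.87 ± 0.16, adjusted p = 0.00509, limma) and kept its call. In the myostatin and activin list 4 of 21 (19%) were called higher and 0 lower, and 2 and 0 under median-ratio scaling, with Tgfbr2 (0.67) called on both scales. In the BMP list 4 of 18 (22.2%) were called higher and 0 lower, but 2 and 2 under median-ratio scaling, with the BMP antagonist Nog (0.91) called higher on both. Of 36 insulin and IGF1 genes 10 (27.8%) were called higher and 2 (5.56%) lower. Under median-ratio scaling 2 (5.56%) were higher and 4 (11.1%) lower, a shift that all genes shared. Of 24 heat shock genes 0 were called (limma; 5 at an unadjusted p under 0.05), and 1 lower under median-ratio scaling.

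Treatments were pooled, so whether the melanoma effect differed between them was tested. The interaction of melanoma with treatment was called for 0 of 13265 genes (0%; limma), with 448 genes at an unadjusted p under 0.05. The treatment term itself was called for 2517 genes (19%), of which 2383 were higher and 134 lower in rFibcd1 libraries. Under median-ratio scaling it was called for 817, and the split turned to 326 higher and 491 lower. Leaving out 1 library gave 1381 to 4299 calls. Fitted alone, the mock libraries (9 against 3) gave 1206 calls and the rFibcd1 libraries (8 against 6) gave 0 calls, with 1428 genes at an unadjusted p under 0.05. Of the 30 genes with the largest differences, 29 could be fitted in both treatments and had the same sign in both, and 28 had the larger absolute difference in mock libraries. The 30 were chosen by the pooled fit over these same libraries, so the shared sign follows in part from that choice. Serpina3n differed by 4.91 in mock and 2.43 in rFibcd1 libraries, Hp by 3.98 and 0.91, and Actc1 by -3.23 and -1.25. These differences between treatments were not past the interaction test.

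**Figure D5:**
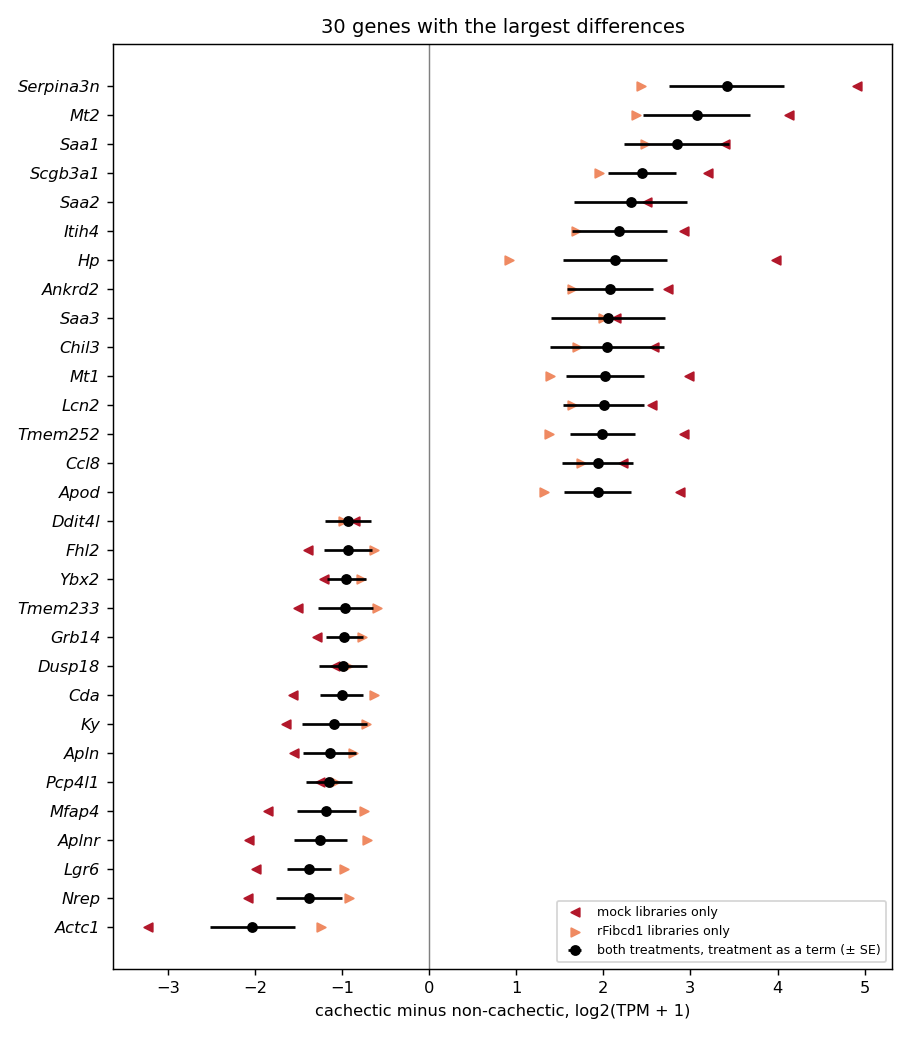
Difference between cachectic and non-cachectic high-state diaphragm in log2(TPM + 1) (horizontal axis) for the 30 genes with the largest called differences, with the pooled estimate ± SE (black) and the estimates in mock and rFibcd1 libraries alone (triangles). Estimates run from 3.42 for Serpina3n to -2.03 for Actc1, and 28 genes lie further from 0 in mock than in rFibcd1 libraries.

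Single libraries ended the call of 10 of these 30 genes when left out. All 10 were lost without non-cachectic mock library 9, with an adjusted p (limma) of 0.0595 for Saa2, 0.0738 for Hp, 0.105 for Saa3, 0.0874 for Chil3, 0.0819 for Fhl2, 0.102 for Tmem233, 0.0543 for Dusp18, 0.122 for Ky, 0.0536 for Nrep and 0.0554 for Mfap4. Ky was lost in 15, Chil3 in 10, Tmem233 in 8 and Saa3 in 4 of the 26 such fits. Without library 8 of that group Saa2, Hp, Fhl2, Mfap4, Chil3, Tmem233 and Ky were lost too, and without its library 6 Fhl2, Mfap4, Saa3, Chil3, Tmem233 and Ky. The other 20, Serpina3n, Mt2, Saa1, Actc1, Lgr6, Apln and Aplnr among them, stayed called without any one of the 26 libraries. Of the 30, Chil3 (adjusted p = 0.0508, limma) and Saa3 lost their calls under median-ratio scaling. Among the other called genes named here, Rpl3, C1qa, C1qb and C4b were lost without library 9 alone, Cry2 and Colq without library 6 alone, Psma7 without 8 or 9, Il6st and Sat1 without 6 or 9, and Psmd4, Psmd8, Bcl3 and Cd14 without 6, 8 or 9 of the non-cachectic mock group. Col15a1 was lost in 5 and Fcgr1 in 11 of the 26 fits.

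The same model over all 39 diaphragm libraries, with states unmatched, called 5177 of 12656 genes (40.9%), 4531 higher and 646 lower, but 1839 higher and 1949 lower under median-ratio scaling. With state as a term over all 39 libraries, 3517 genes (27.8%) were called, 2504 higher and 1013 lower, against 1938 and 1626 under median-ratio scaling. These fits share the 26 libraries. Cebpd differed by 1.69 in the matched and 1.75 in the unmatched fit, and Mt2 by 3.07 and 3.76. The difference of the melanoma effect between states was called for 1103 genes (8.72%), of which 29 were more positive and 1074 more negative in the low state. This count rested on few low-state cachectic libraries, since it was 0 without cachectic rFibcd1 library 6 and 4142 without cachectic mock library 7, and under median-ratio scaling it was 161 with 83.9% more positive in the low state.

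The study named 8 genes for this melanoma model from diaphragms of these groups, so their list is not independent of these libraries. It states fewer cachectic samples per treatment for that analysis than the table holds, and which columns those were is not given in the sources used here. The study compared cachectic with non-cachectic diaphragm, and rFibcd1 with mock within cachectic diaphragm, by rank tests. The fit here pools the treatments and adjusts p over all genes, so the calls are not like for like. Capza1 and Tnni1 were named there as raised by rFibcd1, which a melanoma call does not address. In the matched libraries 2 of the 8 (25%) were called higher on both scales, against 15.6% of all genes as deposited and 3.73% under median-ratio scaling (median 0.42). Scgb3a1, a secretoglobin, ranged from 1.56 to 56.7 TPM against 0.352 to 2.49 TPM (2.44 ± 0.40, adjusted p = 0.00301, limma), and the other was Ddit4. Arrdc2, an arrestin-domain gene, differed by 1.24 (adjusted p = 0.0764, limma), but was called with states unmatched at 1.60 (adjusted p = 0.000479). Zbtb16 differed by 0.58 matched (adjusted p = 0.114, limma) and 0.78 unmatched, where it was called. Klf15 differed by 0.27, Klhl38 by 0.08 and Tnni1 by -0.02 in matched libraries, with no call. Capza1, an actin-capping protein gene, differed by 0.23 matched and by -0.35 unmatched, with a call in neither. Fibcd1 itself was at or below 0.0118 TPM in the 26 libraries and was not tested, and Itga2b, an integrin gene, differed by 0.46 (adjusted p = 0.101, limma).

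Limb muscles of the same melanomas gave values to set beside these. In tibialis anterior 6680 of 11105 genes were called (60.2%) and in soleus 2999 of 11957 (25.1%), with 5 cachectic and 5 non-cachectic libraries each. The limb labels name no rFibcd1, whereas the diaphragm fit pools mock and rFibcd1 libraries, so the sets differ in treatment. The direction of the calls in tibialis anterior depended on scaling, from 6260 higher and 420 lower as deposited to 2043 higher and 2433 lower under median-ratio scaling, while soleus went from 2098 and 901 to 1820 and 1530. Pcna-ps2 was above 3 TPM in the 5 cachectic and in 0 of the 5 non-cachectic libraries of both muscles, so state and melanoma cannot be told apart there. The cachectic limb columns carry the numbers of 5 cachectic mock diaphragm columns, all in the high state, and the non-cachectic limb columns those of 5 non-cachectic mock diaphragm columns, of which 0 are in the high state. Columns that share a number may be the same mice. As deposited, of 1889 genes higher in the diaphragm and tested in all 3 muscles, 1631 (86.3%) were called higher in tibialis anterior, where 56.7% of all genes were, and 881 (46.6%) in soleus against 18.3%. Of 255 lower genes, 88 (34.5%) were called lower in tibialis anterior against 3.59% of all genes, and 117 (45.9%) in soleus against 7.14%. With every fit on the median-ratio scale, 422 genes were higher in the diaphragm, of which 322 (76.3%) were called higher in tibialis anterior against 18.4% of all genes and 272 (64.5%) in soleus against 15.8%. Of 626 lower genes on that scale, 405 (64.7%) were called lower in tibialis anterior against 21.9% and 280 (44.7%) in soleus against 12.4%. Mt2 differed by 3.07 in diaphragm with treatments pooled, and by 7.52 in tibialis anterior and 4.76 in soleus without rFibcd1. Actc1 fell in tibialis anterior by 2.81 and differed by 0.16 in soleus, where it was not called. Aplnr was called in neither limb muscle, at -0.24 and -0.79, while Ankrd2 differed by -0.95 in tibialis anterior without a call and rose by a log2 difference of 1.74 in soleus.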

How the data were processed

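RNA was extracted from muscle and sequenced as mRNA libraries. The deposited values are TPM per gene symbol for 59 columns, which the authors obtained by aligning trimmed reads to GRCm38 (mm10) with the CLC Genomics Workbench. The gene annotation is not given in the sources used here. The labels and the study's methods name different kits and instruments. TPM keeps no depth, so no counting interval was computed. Column names gave the group of each sample and no more.

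Diaphragm columns with Pcna-ps2 above 3 TPM were compared in R 4.3.3 with limma 3.58.1 (trend, two-sided, Benjamini-Hochberg, called at an adjusted p under 0.05) on log2(TPM + 1), with melanoma and treatment as terms. This scale understates differences of low genes. Genes entered at a TPM of at least 1 in at least 9 libraries, the size of the smaller melanoma group. The study itself used rank tests on log TPM, which is an alternative here. Library measures were tested by exact permutation within treatment. The fit was tested on simulated data. Alternatives were another pseudocount, other filters, median-ratio and quantile scaling, leaving out mitochondrial genes, array weights, other designs and leaving out each library.

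Genes were named by rule. The rule took the 15 highest and 15 lowest called differences (mean TPM 5 or more), up to 3 called genes a direction from each of 39 lists (mean TPM 1 or more), the genes the study named, up to 5 genes of each interaction, and Pcna. Those described outside the rule, Fbxo32, Trim63, Stat3, Osmr, Il6st, Nr3c1, Arntl, Myh7, Myh4 and the called macrophage markers, were chosen after their values were seen. The members, lists and tests were chosen with earlier results of these data known. Positions are from GENCODE M21, where 96.9% of the tested symbols were found, and promoters from RefSeq on GRCm38.p6.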

Additional observations from a re-analysis of the deposited data

Results flagged for a closer look

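In groups of 4 to 10 libraries, the highest or lowest library of the 30 genes with the largest differences, the genes the study named, Itga2b and the 3 library measures was compared with the others by Dixon's gap test (genes on the log2 scale), which flags about 1 in 20 groups by chance. It flagged 12 of 123. In the cachectic mock group Saa2 reached 307 TPM and Itih4 123 TPM in library 8, where Actc1 was also highest at 14.1 TPM. Ddit4 reached 303 TPM and Klf15 244 TPM in library 6 of that group, where Ccl8 was lowest at 22.9 TPM, and Pcp4l1 reached 128 TPM in library 10. In the cachectic rFibcd1 group library 3 had the lowest Tmem233 (4.16 TPM) and Apln (0.433 TPM) and the highest Zbtb16 (118 TPM). In the non-cachectic rFibcd1 group Apod was lowest at 18.3 TPM in library 4 and Capza1 highest at 16.0 TPM in library 6.

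The melanoma effect differed between the states of the diaphragm for 1103 genes by the interaction of melanoma and state (limma). The 5 with the smallest adjusted p were Lamc1, a laminin chain (low minus high state -0.97), Kifc3, a kinesin (-0.67), Ppp1r12a, a myosin phosphatase subunit (-1.06), the DNA polymerase gene Polk (-0.68) and Ldlrad4 (-0.91). In the high state Lamc1 differed between the melanomas by 0.06 and in the low state by -0.92. The low state held 3 cachectic libraries. Without cachectic rFibcd1 library 6 the interaction was called for 0 genes, so these 5 calls rest on that library. Under median-ratio scaling 161 genes were called, with 83.9% more positive in the low state.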

How the results depend on the processing

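No paired analysis was possible because the column numbers are unique across the diaphragm groups and tie to no sample label, so the planned fit with a replicate block was not run. The main comparison gave 2386 calls, 2067 higher and 319 lower. It gave 1214 (495 and 719) with median-ratio scaling, 1411 (517 and 894) with quantile normalization, 1181 (587 and 594) without mitochondrially encoded genes, 6413 (5685 and 728) with array weights, 106 (94 and 12) with the study's thresholds, 1206 (1088 and 118) in mock libraries only, and 0 (0 and 0) in rFibcd1 libraries only or with Pcna-ps2 above 10 TPM, where 3 non-cachectic libraries remained. All diaphragm libraries with states unmatched gave 5177 (4531 and 646). Without a filter 1360 genes were higher, and with state as a term 1013 were lower. A pseudocount of 0.1, the mean filter, no treatment term, equal weight of treatments, the Dunn test and a threshold of 1 TPM kept these counts within 1.5 times. Leaving out 1 library gave 795 to 3755 calls, 670 to 3361 higher and 125 to 469 lower. The cause of these shifts was not tested. The melanoma by treatment interaction stayed at 0 in each fit run.

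Added after seeing the data, median-ratio scaling gave 817 for the treatment effect and 161 for the melanoma by state interaction, and left the total calls of the unmatched, state-term and limb fits within 1.5 times. The directions did not hold: the treatment effect went from 2383 higher and 134 lower to 326 and 491, the unmatched fit from 4531 and 646 to 1839 and 1949, and tibialis anterior from 6260 and 420 to 2043 and 2433. Leaving out 1 library gave 1381 to 4299 for the treatment effect, 0 to 4142 for the state interaction, 4669 to 6896 unmatched, 3111 to 3892 with state as a term, 5097 to 7471 in tibialis anterior and 2131 to 3844 in soleus. The mitochondrial difference ranged from -6.05 to -4.75 points. Ppp1r12a changed sign with state as a term, to -0.0098. The overlaps with the limb fits on the median-ratio scale were also chosen after seeing the data. Unknown depth limits low genes.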
